A study of Mus musculus with 8 samples.

Results

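The heat shock and chaperone genes were followed in serum-starved mouse fibroblasts that received serum with or without cordycepin. The set comprised 10 genes: the Hsp70 genes Hspa1a, Hspa1b, Hspa8 and Hspa5, the J domain gene Dnajb1, the Hsp110 gene Hsph1, the small heat shock protein gene Hspb1, the Hsp90 genes Hsp90aa1 and Hsp90ab1, and Hsf1. Every non-control probe whose gene name in the array design was one of these symbols was taken, without regard to its signal. This gave 13 of the 55681 probes on the array, for 9 of the 10 genes. No probe was named Hspa1b, but the transcripts listed for the Hspa1a probe belong to both Hspa1a and Hspa1b, so the RNAs of this pair cannot be told apart here. Of the 13 probes, 11 probes of 8 genes stood well above background throughout at least 1 group of arrays and were tested.

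The cells were NIH3T3, an immortalised line of mouse embryonic fibroblasts. All groups were grown in 10% newborn bovine serum and starved in 0.5% serum for 24 h. Cordycepin is an adenosine analogue whose ribose lacks the hydroxyl that would carry the next nucleotide. In the first group, 3 arrays measured total RNA of cells given 20 µM cordycepin in DMSO for 90 min, with serum added for the last 30 min. A figure legend of the paper instead has the 30 min of serum follow the 90 min of treatment. A further 3 arrays measured cells given vehicle (0.1% DMSO) in place of cordycepin, with the same 30 min of serum, and 2 arrays measured starved cells given no serum. The treatment protocol has vehicle or cordycepin added before plates did or did not receive serum, while the labels of these 2 arrays name the starvation alone. No array measured cordycepin without serum, so its effect was seen in serum-stimulated cells alone. The design text calls the replicates independent but does not name separate cultures, so the p-values measure the spread between these arrays.

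Chaperones bind unfolded stretches of other proteins and keep them from aggregating while they fold. Hsp70 proteins do so in cycles of ATP binding and hydrolysis. J domain proteins deliver clients to Hsp70 and stimulate its ATPase, and Hsp110 and Bag proteins release the nucleotide. Hsp90 acts later, on partly folded clients such as kinases and steroid receptors. Small heat shock proteins hold unfolded proteins without using ATP. HSF1 is the transcription factor that is held inactive in unstressed cells and, after heat or other proteotoxic stress, forms trimers on heat shock elements, which are inverted repeats of the unit GAA. Many chaperone genes are also strongly expressed in unstressed, growing cells.

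The stretches of RNA that carried the 2 main results are identified here by the first 30 bases of each 60-base probe. The Hspa1a probe lies at chr17:35094199-35094258 on the minus strand of mm9 and starts at base 1925 of the transcript. The Dnajb1 probe lies at chr8:86135660-86135719 on the plus strand and starts at base 2121.
Hspa1a probe: tgacaagaagaaggtgctggacaagtgcca
Dnajb1 probe: ggcgtgaaagtatctgttctttggagctag

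Promoters from RefSeq (build GRCm38.p6) were at hand for 6 of the 10 genes, and the 250 bases upstream of the start are considered. Those of Hspa1a and Hspa1b are shown because 1 probe stands for both genes. They lie at chr17:34972157-34972406 and chr17:34959239-34959488, both on the minus strand, and 3 of the 250 bases differ between them. Capitals mark a pair of inverted heat shock units (GAANNTTC or TTCNNGAA), which starts 104 bases before the transcription start in both. The promoter of Dnajb1, the gene with the clearest change, lies at chr8:83607925-83608174 on the plus strand and belongs to the first of its 2 listed starts.
Hspa1a: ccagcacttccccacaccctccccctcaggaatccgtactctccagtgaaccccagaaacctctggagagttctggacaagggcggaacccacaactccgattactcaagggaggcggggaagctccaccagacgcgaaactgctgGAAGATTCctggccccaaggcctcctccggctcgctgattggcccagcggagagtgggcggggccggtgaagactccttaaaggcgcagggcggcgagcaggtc
Hspa1b: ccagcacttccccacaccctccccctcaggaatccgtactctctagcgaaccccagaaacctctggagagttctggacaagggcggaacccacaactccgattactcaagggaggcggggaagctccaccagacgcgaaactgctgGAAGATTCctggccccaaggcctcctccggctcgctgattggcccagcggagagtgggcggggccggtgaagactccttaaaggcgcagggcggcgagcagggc
Dnajb1: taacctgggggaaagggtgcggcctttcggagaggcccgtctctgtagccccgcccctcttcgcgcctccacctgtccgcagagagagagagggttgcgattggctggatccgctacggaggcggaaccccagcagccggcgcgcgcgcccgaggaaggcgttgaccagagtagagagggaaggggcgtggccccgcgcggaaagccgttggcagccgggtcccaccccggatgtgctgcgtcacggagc

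Searched on both strands, the pair of inverted units was present in the promoters of Hspa1a, Hspa1b, Hsph1 and Hspb1, which is 4 of 6 genes. It occurred in 12.84% of all 32851 promoters in the table and in 14.55% of its genes. The upstream sequences of Dnajb1 and Hspa5 did not contain these letters. A run of units one longer was found in none of the 6 genes and in 0.4657% of promoters. CCAAT was found in 5 of the 6 genes and in 33.85% of promoters (37.49% of genes), and TATAAA in none of the 6 and in 12.37%. The ER stress element, CCAAT followed 9 bases later by CCACG, was found in Hspa5 alone among the 6 genes and in 0.1126% of promoters. It includes the letters of the CCAAT search. In Hspa5 it starts 65 bases before the transcription start, in the upstream region at chr2:34771840-34772089 on the plus strand, and is shown in capitals because this element is the known switch of the ER chaperone genes. A match of letters is a description and not a measured binding site.
Hspa5: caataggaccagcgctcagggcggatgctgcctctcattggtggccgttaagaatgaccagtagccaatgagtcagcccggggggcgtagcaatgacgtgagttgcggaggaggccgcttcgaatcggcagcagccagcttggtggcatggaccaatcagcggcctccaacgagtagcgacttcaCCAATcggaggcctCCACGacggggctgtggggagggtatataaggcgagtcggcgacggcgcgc

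All levels below are normalised log2 signals: the log2 of the processed signal of a spot minus the 75th percentile of its array, so that 0 is the level of that percentile. The percentile itself lay between 350.5 and 802.2 on the 8 arrays, and no spot was saturated. Between 51.1 and 57.1% of probes were well above background on an array. All 8 fibroblast markers were above background in every group. Of 5 leucocyte markers, Cd68, Cd14, Itgam and Cd3e were above background in every group and Ptprc was not. For that list the linear signals were summed on each array, so bright genes weigh most. The log2 of this sum was 4.76 to 5.09 with cordycepin plus serum, 3.94 to 4.14 with serum and 3.82 to 4.23 without serum. Of the 4 tested, Cd68 (log2 3.04 ± 0.21 SE, adjusted p = 5.17e-05) and Itgam (0.63 ± 0.15, adjusted p = 0.0219) were higher with cordycepin plus serum than with serum in the limma fit. The part of this shift in the chaperone results was not tested. Of the 6 epithelial markers Krt14 was above background in all groups and Cldn4 in the arrays without serum alone, and Krt14 was higher with cordycepin plus serum than with serum (0.53 ± 0.14, adjusted p = 0.0312). Of the endothelial list 3 of 4 genes were above background in every group, and none passed. The part of Krt14 was not tested either.

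Dnajb1 was the member that changed most. Its RNA rose 2.95-fold within 30 min of serum, and the rise was smaller, but present, in cells that had received cordycepin. Whether that remaining rise passed depended on the processing and on the arrays kept. Hspa1a was also lower with cordycepin plus serum than with serum, by a smaller and less stable margin. The tested probes of the other members, Hspa8, Hspa5, Hsph1, Hsp90aa1, Hsp90ab1 and Hsf1, did not pass in any comparison. The probe of Hspb1 was not tested. A probe passed at an adjusted p under 0.05 in limma (Benjamini-Hochberg adjustment across the 30859 tested probes).

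**Figure D1:**
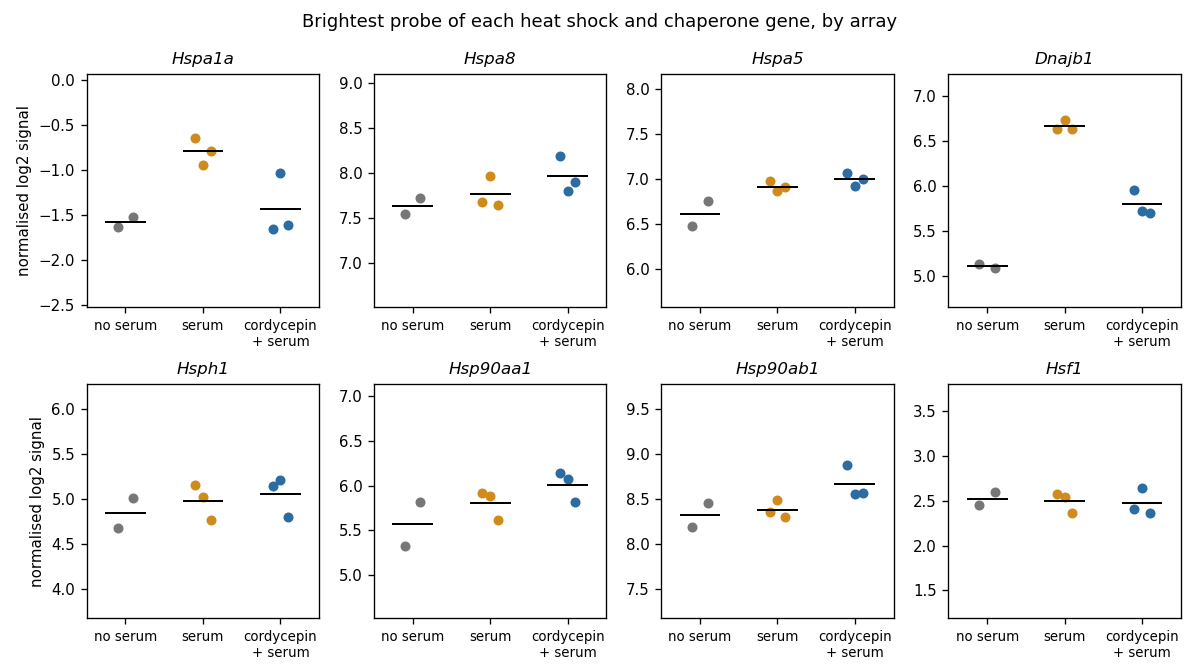
Normalised log2 signal (y axis, relative to the 75th percentile of the array) of the brightest probe of 8 heat shock and chaperone genes on each array; points are arrays, bars are group means (n = 2 without serum, 3 with serum, 3 with cordycepin plus serum), and all panels span an equal log2 range. The 3 groups of Dnajb1 arrays do not overlap, whereas those of Hsph1 and Hsf1 do.

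What serum changes in starved cells was asked first, by comparing serum with no serum. Of the 11 member probes, 1 passed as higher and 0 as lower, where 1.14% of all tested probes passed as higher and 1.13% as lower. The change was positive for 10 of the 11 probes and for 45.9% of all tested probes. The median change was 0.14 for the member probes and -0.02 for all tested probes. The 11 probes stand for 8 genes and share the 2 arrays without serum, so their signs are not independent. The effect of cordycepin on stimulated cells was then asked by comparing cordycepin plus serum with serum. Here 0 of 11 member probes passed as higher and 2 as lower, where 12.0% of all tested probes passed as higher and 7.36% as lower. The median change of the member probes was 0.08 and that of all tested probes was 0.10. Both comparisons use the same 3 serum arrays, so a low or high serum array moves them in opposite directions. The comparison of cordycepin plus serum with no serum, which does not use them, had 1 member probe higher and 0 lower, where 9.16% of all probes passed as higher and 5.95% as lower.

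**Figure D2:**
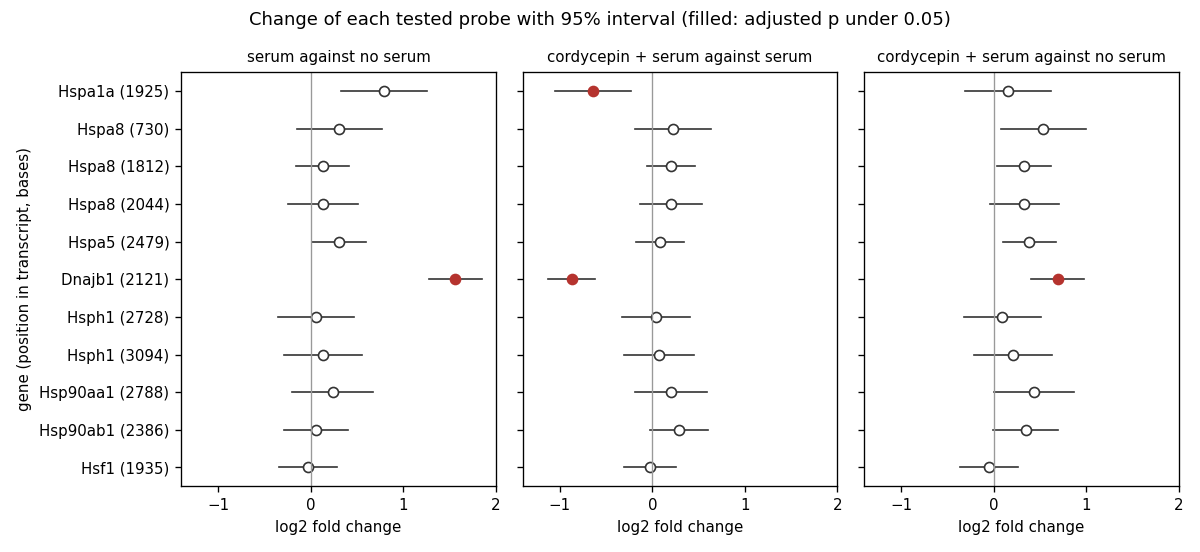
Log2 fold change (x axis) of each of the 11 tested probes in the 3 comparisons, with 95% intervals from limma; filled points passed at an adjusted p under 0.05, and the number beside a gene is the first base of the probe in the transcript. Dnajb1 lies outside the range of the other probes in the first and second panels (1.56 and -0.87), and the intervals of most other probes include 0.

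Among the J domain genes, Dnajb1 encodes an HSF1-inducible partner of cytosolic Hsp70. Its normalised log2 signal was 5.13 and 5.08 on the arrays without serum. It was 6.63, 6.73 and 6.63 on the serum arrays, and 5.96, 5.72 and 5.70 with cordycepin plus serum. Every serum array was above every array of the other groups, and every cordycepin array lay between the serum arrays and those without serum. Serum raised the signal by 1.56 ± 0.12 (SE, log2; 95% interval 1.28 to 1.85; adjusted p = 0.000867 in limma). With cordycepin plus serum it was lower than with serum by a log2 change of -0.87 ± 0.11 (interval -1.13 to -0.62; adjusted p = 0.00086), which is 1.83-fold lower. It was still higher than without serum, by 0.69 ± 0.12 (interval 0.40 to 0.97; adjusted p = 0.007), a 1.61-fold difference. On the log2 scale, 44.1% of the serum rise was present with cordycepin, a share that was 36.2% under quantile normalisation and 26.5% with spike-in centring. The call against no serum was lost without no serum replicate 2 (adjusted p = 0.0534) and kept without no serum replicate 1 (adjusted p = 0.0416). All 3 calls were lost when the arrays were centred on spike-in probes (adjusted p from 0.658 to 0.964), which raised the standard errors to 0.51 and 0.57. Under that centring the serum change was 1.18, the cordycepin change -0.86 and the change against no serum 0.31.

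Hspa1a encodes the stress-inducible Hsp70, and Hspa1b a nearly identical protein. The signal of the shared probe was low, at -1.64 and -1.53 without serum, but well above background on all 8 arrays. It was -0.65, -0.95 and -0.79 on the serum arrays and -1.66, -1.04 and -1.61 with cordycepin plus serum. All serum arrays were above all other arrays, and 2 of the 3 cordycepin arrays were at the level of the arrays without serum. The second cordycepin array stood between the groups. The serum change was 0.79 ± 0.20 (interval 0.33 to 1.25) and did not pass (adjusted p = 0.115, unadjusted p = 0.00436). The cordycepin change was -0.64 ± 0.18 (interval -1.05 to -0.23) and passed (adjusted p = 0.0408), a 1.56-fold lower signal. This call was lost in 13 of 19 alternative settings, among them the omission of any single array except cordycepin replicate 2 (adjusted p from 0.0552 to 0.130). Without cordycepin replicate 2 the cordycepin change was -0.84 (adjusted p = 0.00562), and the serum change passed (adjusted p = 0.0403). Against no serum, cordycepin plus serum differed by 0.15 ± 0.20 (interval -0.31 to 0.61; adjusted p = 0.675).

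Hspa8 encodes the constitutive cytosolic Hsp70, which also uncoats clathrin vesicles. Its 3 probes start at bases 730, 1812 and 2044 of the transcript. The files place all 3 on chromosome 5 of mm9, at chr5:5782847-5782906, chr5:88493266-88493325 and chr5:5781530-5781589, whereas RefSeq places the gene on chromosome 9. Copies of the Hspa8 sequence elsewhere in the genome may therefore share this signal, and the values are uncertain to that extent. The brightest probe, at base 2044, had a normalised log2 signal of 7.55 and 7.72 without serum. It had 7.68, 7.97 and 7.65 with serum and 8.19, 7.80 and 7.91 with cordycepin plus serum. The serum and cordycepin arrays overlapped, and the arrays without serum lay below all 3 cordycepin arrays. The serum changes of the 3 probes were 0.31, 0.13 and 0.13 in the order of their positions, and the cordycepin changes were 0.23, 0.20 and 0.20. For the brightest probe the 95% interval was -0.25 to 0.51 for serum and -0.14 to 0.54 for cordycepin. Against no serum the changes with cordycepin plus serum were 0.53, 0.33 and 0.33, with adjusted p-values of 0.128, 0.139 and 0.235 in limma, so none passed.

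Hspa5 encodes BiP, the Hsp70 of the endoplasmic reticulum and a chaperone that binds the stress sensors of that compartment. Its probe starts at base 2479 and lies at chr2:34631913-34631972. The normalised log2 signal was 6.48 and 6.75 without serum, 6.98, 6.87 and 6.91 with serum, and 7.07, 6.93 and 7.00 with cordycepin plus serum. Both arrays without serum were below the other 6, and the serum and cordycepin arrays overlapped. The serum change was 0.30 ± 0.13 (interval 0.01 to 0.59; adjusted p = 0.454) and the cordycepin change 0.08 ± 0.11 (interval -0.18 to 0.34; adjusted p = 0.651). Against no serum, cordycepin plus serum was 0.38 ± 0.13 (interval 0.09 to 0.68) with an adjusted p of 0.0858, so it did not pass.

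Hsph1 encodes an Hsp110 protein, which releases nucleotide from Hsp70 and is a classical target of HSF1. Its probes start at bases 2728 and 3094, at chr5:150420110-150420169 and chr5:150419744-150419803. The brighter probe, at base 3094, gave 4.69 and 5.01 without serum, 5.16, 5.02 and 4.77 with serum, and 5.15, 5.22 and 4.81 with cordycepin plus serum. The 3 groups overlapped throughout. Serum changed this probe by 0.14 ± 0.18 (interval -0.29 to 0.56) and cordycepin by 0.07 ± 0.16 (interval -0.31 to 0.45). The other probe changed by 0.06 and 0.04 and its groups overlapped as well.

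Among the Hsp90 genes, Hsp90aa1 encodes the stress-inducible cytosolic isoform and Hsp90ab1 the constitutive one. The Hsp90aa1 probe starts at base 2788, at chr12:111929248-111929307, and gave 5.32 and 5.82 without serum, 5.92, 5.89 and 5.62 with serum, and 6.14, 6.07 and 5.81 with cordycepin plus serum. The groups overlapped, with the lowest value on an array without serum. Its serum change was 0.24 ± 0.19 (interval -0.20 to 0.67) and its cordycepin change 0.20 ± 0.17 (interval -0.19 to 0.59). A second Hsp90aa1 probe, designed on an expressed sequence tag and given no position, was at background on all 8 arrays. The Hsp90ab1 probe starts at base 2386, at chr17:45704788-45704847, and gave 8.19 and 8.46 without serum, 8.35, 8.49 and 8.31 with serum, and 8.88, 8.56 and 8.57 with cordycepin plus serum. All 3 cordycepin arrays were above the other 5, and the serum arrays overlapped those without serum. The cordycepin change of Hsp90ab1 was 0.29 ± 0.13 (interval -0.03 to 0.60) and did not pass (adjusted p = 0.188), and its serum change was 0.06 ± 0.15 (interval -0.29 to 0.41). Quantile normalisation brought its cordycepin change to 0.083 (adjusted p = 0.55 in limma).

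The regulator Hsf1 was measured by a probe that starts at base 1935, at chr15:76331320-76331379. Its normalised log2 signal was 2.45 and 2.59 without serum, 2.57, 2.54 and 2.37 with serum, and 2.41, 2.64 and 2.36 with cordycepin plus serum. The 3 groups overlapped. The serum change was -0.03 ± 0.13 (interval -0.34 to 0.28), the cordycepin change was -0.03 ± 0.12 (interval -0.30 to 0.25), and neither passed. HSF1 is controlled mainly through the state of its protein, which an mRNA level does not measure.

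The small heat shock protein gene Hspb1, which encodes the mouse Hsp27, could not be compared. Its probe was well above background on 4 of 8 arrays, 2 with cordycepin plus serum, 1 with serum and 1 without serum. The files place it at chr13:45173742-45173801, whereas RefSeq places the gene on chromosome 5. Its signals ranged from -7.31 to -4.03, and the highest and the lowest were on arrays of different groups.

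The other genes of the chaperone network were taken from 8 lists with 88 genes, of which 83 had a tested probe, and the brightest tested probe stood for a gene. After serum, 2 of 83 passed as higher and 0 as lower, where 1.14% and 1.13% of all tested probes did. Their median change was 0.03, against -0.02 for all tested probes. With cordycepin plus serum against serum, 1 passed as higher and 4 as lower, where 12.0% and 7.36% of all tested probes did. Their median change there was 0.15, against 0.10. The medians of the lists, here and below, use the brightest probe of a gene, unlike those of all tested probes. The 2 sets were not matched for brightness. Under quantile normalisation the cordycepin median of all tested probes was 0.003. The 2 genes raised by serum, Dnajb4 and Bag2, were also among the 4 that were lower with cordycepin; the serum arrays are shared by both comparisons. Spike-in centring ended the 2 serum calls and the 5 cordycepin calls (adjusted p from 0.221 to 1.00). It left the cordycepin changes near their values (Dnajb4 -1.17, Bag2 -0.67, Bag5 -0.51, Herpud1 -0.75), while the serum changes were 0.90 for Dnajb4 and 0.50 for Bag2.

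**Figure D3:**
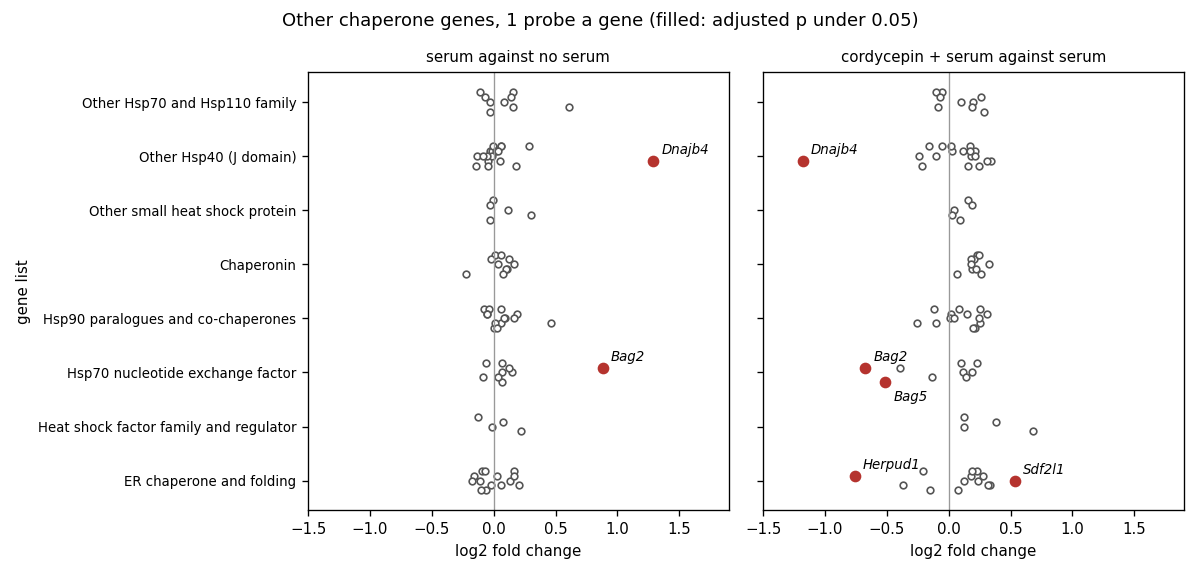
Log2 fold change (x axis) of the brightest tested probe of 83 other chaperone genes, in 8 lists (rows), for serum against no serum and for cordycepin plus serum against serum; each point is a gene, and filled, named points passed at an adjusted p under 0.05. Dnajb4 lies farthest from 0 in both panels (1.29 and -1.18).

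Dnajb4, another J domain partner of cytosolic Hsp70, was the single passing gene among 18 of its list in either comparison. Its probe lies at chr3:151849464-151849523, and its normalised log2 signal was -0.38 and -0.12 without serum. It was 1.10, 1.19 and 0.82 with serum and -0.14, -0.17 and -0.12 with cordycepin plus serum. The serum arrays were above all others, and the cordycepin arrays fell within the range of the arrays without serum. Serum raised it by 1.29 ± 0.15 (SE; adjusted p = 0.00441 in limma), a 2.44-fold rise. With cordycepin plus serum it changed by -1.18 ± 0.13 against serum (adjusted p = 0.000436). Against no serum it differed by 0.11 ± 0.15 (interval -0.23 to 0.45; adjusted p = 0.681). Whether Dnajb4 and Dnajb1 differed in how much of the serum rise was left was not tested. The other J domain genes ranged from -0.15 to 0.28 after serum.

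Of the 9 nucleotide exchange factors, which reset the Hsp70 cycle, Bag2 passed as higher after serum and Bag2 and Bag5 as lower with cordycepin. Bag2, an inhibitor of the ubiquitin ligase Chip, lies at chr1:33802655-33802714 and had 1.58 and 1.49 without serum. It had 2.37, 2.54 and 2.34 with serum and 1.66, 1.95 and 1.62 with cordycepin plus serum. The 3 groups did not overlap, with the cordycepin arrays just above those without serum. Serum raised Bag2 by 0.88 ± 0.14 (adjusted p = 0.0185), and cordycepin plus serum changed it by -0.67 ± 0.12 (adjusted p = 0.00626). Against no serum, Bag2 differed by 0.21 ± 0.14 with cordycepin plus serum (interval -0.11 to 0.53) and did not pass (adjusted p = 0.378 in limma). The serum call was lost in 8 of 19 settings, 4 of them the omission of serum replicate 1 or 2 or of either array without serum (adjusted p from 0.0535 to 0.133), and the others spike-in centring, no filter (adjusted p = 0.104) and both settings with a minimum log2 fold change of 1. Bag5 gave 3.41 and 3.40 without serum, 3.48, 3.53 and 3.42 with serum, and 2.86, 3.05 and 2.97 with cordycepin plus serum, and all cordycepin arrays were below all others. Its cordycepin change was -0.52 ± 0.10 (adjusted p = 0.00776), while its second probe changed by -0.14 ± 0.15 (adjusted p = 0.546), and the mean of its probes by -0.33 (adjusted p = 0.0599). Bag3, the family member most closely tied to HSF1, changed by 0.15 after serum and 0.12 with cordycepin, and neither passed.

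Of the 14 ER chaperone and folding genes, none passed after serum, and 1 passed as lower and 1 as higher with cordycepin. Herpud1, a component of ER-associated degradation, gave 3.59 and 3.48 without serum, 3.84, 3.59 and 3.66 with serum, and 2.63, 3.12 and 3.06 with cordycepin plus serum. All cordycepin arrays were below the other 5. The cordycepin change was -0.76 ± 0.15 (adjusted p = 0.00971), a 1.69-fold lower signal. A minimum log2 fold change of 1 would leave out the cordycepin calls of Herpud1, Bag2 and Bag5. Sdf2l1, a partner of BiP, gave 0.17 and 0.20 without serum, 0.27, -0.28 and 0.23 with serum, and 0.61, 0.69 and 0.52 with cordycepin plus serum. Its rise of 0.54 ± 0.16 was at the threshold (adjusted p = 0.0499) and was lost in 14 of 19 alternative settings.

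The 10 chaperonin genes, which form the folding chambers of the cytosol and mitochondria, were all positive with cordycepin plus serum against serum, from 0.07 to 0.32 with a median of 0.21, but none passed. In that comparison 62.4% of all tested probes were positive, with a median of 0.10. Whether the signs of the chaperonin genes hold under another normalisation was not tested. Cct4 changed by 0.32 (adjusted p = 0.0668) and the mitochondrial Hspd1 by 0.18 (adjusted p = 0.429). After serum the same genes had a median change of 0.07 and none passed. None of the 14 Hsp90 paralogue and co-chaperone genes, the 9 other Hsp70 and Hsp110 genes, the 5 tested small heat shock protein genes or the 4 tested genes of the heat shock factor family passed in either comparison. Their median cordycepin changes were 0.12, 0.10, 0.09 and 0.25. Against no serum, cordycepin plus serum gave 1 gene higher and 1 lower among the 83, where 9.16% and 5.95% of all tested probes passed. These were Hsf5 (0.90 ± 0.24, adjusted p = 0.0431, lost in 11 of 19 settings) and Bag5 (-0.45 ± 0.11, adjusted p = 0.0306, lost in 14), and both were named after their values were seen.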

How the data were processed

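Total RNA was labelled with Cy3 and hybridised to 8 one-colour Agilent mouse arrays on 1 slide, read in 1 scan. The deposited files hold each array's spot intensity; per the file headers the authors extracted it with Feature Extraction 10.7.3.1 (background and spatial trend removed) and gave probe positions on mm9. Control spots (3671 of 62976) and outlier spots were left out. The processed signal was log2 transformed and centred on the 75th percentile of each array, so a change shared by most RNAs would not be seen. Of 55681 probes, 30859 were tested. Groups came from the labels and were compared with limma 3.58.1 in R 4.3.3, with all 8 arrays in 1 fit without covariate, two-sided. The number of arrays limits the precision. The fit was tested on simulated data, where changes of log2 1, the smallest simulated, were often missed, and some larger ones too. A probe that did not pass may therefore still have changed.

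The members and the lists of other chaperone and marker genes were chosen with earlier results of these data known. Named were all members, and from each list up to 3 genes that passed with cordycepin and up to 2 with serum. Bag3, Cct4, Hspd1 and Hsf5 were added after their values were seen. Same-numbered arrays of different groups deviated with correlations of -0.17 to 0.23 in 7 pairs. Differently numbered arrays gave -0.32 to 0.32 in 14 pairs, so replicate numbers were not taken to pair arrays. Deviations within a group offset each other, so these correlations are not independent and could show little. The alternatives were normexp background correction (offset 50), quantile normalisation, spike-in centring (297 spots), other filters and thresholds, 2-group fits, blocks for replicate number and slide row, gene means, and leaving out each array. All were run on the members. The genes of the chaperone lists that passed were also run, after their values were seen. Bag3, Cct4 and Hspd1 were not run under the alternatives. A gene of the marker lists is not reported here and was left out of their counts and sums.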

Additional observations from a re-analysis of the deposited data

How the results depend on the processing

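With a centring on spike-in probes the serum change of all probes had a median of -0.40, and cordycepin plus serum against no serum one of -0.29. No member then passed. The serum changes of Hspa8 (-0.25), Hspa5 (-0.084), Hsph1 (-0.25), Hsp90aa1 (-0.15) and Hsp90ab1 (-0.33) turned negative, as did those of Hspa1a (-0.23), Hspa8 (-0.046), Hsph1 (-0.17), Hsp90ab1 (-0.033), Dnajb4 (-0.27) and Bag2 (-0.17) in the other comparison, and all of these stayed above the shifted medians. Quantile normalisation turned the cordycepin changes of Hspa8 (-0.011) and Hspa5 (-0.064) and the serum change of Hsp90ab1 (-0.039). Over the whole array it gave 3015 probes higher and 3406 lower with cordycepin, against 3704 and 2271. In cordycepin plus serum against no serum it gave 2426 and 2450, against 2826 and 1837. Spike-in centring gave 1681 and 390 with cordycepin and 54 and 181 with serum, against 352 and 348, and normexp gave 308 and 139 with serum.

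The 2 members lower with cordycepin became 1 (Dnajb1) without a filter, in the 2-group fit and with the replicate block. They became 0 with spike-in centring and with a minimum log2 fold change of 1, at an adjusted or an unadjusted p. That minimum and that centring also left 0 members higher in cordycepin plus serum against no serum, and that centring 0 after serum. On leaving out 1 array the counts were 1 to 2 lower with cordycepin, 1 to 2 higher with serum and 0 to 1 higher with cordycepin plus serum against no serum. The replicate block turned Hsf1 to 0.032 after serum and to 0.0064 with cordycepin plus serum against no serum, and gave the cordycepin change of Hspa1a an adjusted p of 0.0744.

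Leaving out 1 array turned some changes near 0. With cordycepin, Hsph1 ranged from -0.033 to 0.20 and Hsf1 from -0.11 to 0.028. With serum, Hsph1 ranged from -0.028 to 0.30, Hsp90aa1 from -0.013 to 0.48, Hsp90ab1 from -0.079 to 0.19 and Hsf1 from -0.095 to 0.041. In cordycepin plus serum against no serum, Dnajb4 ranged from -0.022 to 0.24, Hspa1a from -0.049 to 0.26 and Hsf1 from -0.14 to 0.015. With 1 array left without serum, that array was assumed to vary like the other groups. Why these values shifted was not tested.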
